A study of Caenorhabditis elegans with 2 samples.

Results

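The genes described here encode the respiratory chain and the ATP synthase of the nematode Caenorhabditis elegans, and the measurement is where the E2F-family transcription factor EFL-1 lay along their promoters. They are all protein-coding genes on the 6 nuclear chromosomes whose symbol starts with nuo-, sdh-, ucr-, cyc-, cox- or atp-, which gave 34 of 19973 genes. The rule uses no measured value, but it was set with earlier results of these data known. These were 6 nuo genes of complex I, 5 ucr genes of complex III, 3 cyc genes for cytochromes c and c1, 15 cox genes of complex IV and 5 atp genes of the ATP synthase. No annotated symbol starts with sdh-, so complex II has no member, and its genes are described with the rest of the pathway.

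The data are chromatin immunoprecipitation and sequencing (ChIP-seq) peak lists from whole larvae of the first larval stage (L1), of both sexes together and of unknown age, in 1 group of 2 biological replicates that the labels number 2 and 3. Per the labels, both replicates came from strain YL418, which carries the mutation unc-119(ed3) and the integrated transgene vrIs65, where the promoter of ges-1, a gene of the intestine, stands before efl-1 joined to GFP and FLAG tags and to the efl-1 3' untranslated region, with unc-119(+) beside it. The target is given as eGFP-tagged EFL-1 and the antibody only as efl-1, so whether untagged EFL-1 was also pulled down is unknown here. The tagged EFL-1 stands behind the ges-1 promoter and not its own, so where EFL-1 binds at its native level was not measured separately. The larvae were not dissected, so EFL-1 in few cells and weak binding in many cannot be told apart. The lists hold no read counts, so depth is unknown.

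The respiratory chain passes electrons from NADH and succinate through complexes I and II to ubiquinone, then through complex III, cytochrome c and complex IV to oxygen, and the proton gradient that complexes I, III and IV build drives the ATP synthase. The proteins come from nuclear genes and from the mitochondrial genome, and dedicated assembly factors insert haem and copper into complex IV. E2F factors bind DNA as dimers with DP proteins and are known as regulators of cell cycle genes, and many nematode genes sit in operons, runs of closely spaced genes on 1 strand that share a promoter.

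The sequences below are the 201 bases centred on the EFL-1 summit, the position of highest signal, at 4 of these promoters, read from the RefSeq WBcel235 genome (ce11) on the plus strand, the coding strand of all 4 genes. They show the 3 strongest complex IV peaks and, for contrast, the peak of atp-2, which has a signal close to that of the typical peak. Capitals mark TTTGAA, the central bases of the CHR (cell cycle genes homology region) element, and cox-5A is the only 1 of the 4 that holds it. The stretches are chrIII:12905101-12905301 for cox-5A, chrII:12679734-12679934 for cox-10, chrIII:10218663-10218863 for cox-14 and chrIII:5228080-5228280 for atp-2, and none of them overlaps an annotated untranslated region or coding exon.
cox-5A: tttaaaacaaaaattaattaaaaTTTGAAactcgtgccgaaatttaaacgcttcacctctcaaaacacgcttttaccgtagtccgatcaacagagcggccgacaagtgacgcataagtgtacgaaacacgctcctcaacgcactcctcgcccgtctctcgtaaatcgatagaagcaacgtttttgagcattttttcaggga
cox-10: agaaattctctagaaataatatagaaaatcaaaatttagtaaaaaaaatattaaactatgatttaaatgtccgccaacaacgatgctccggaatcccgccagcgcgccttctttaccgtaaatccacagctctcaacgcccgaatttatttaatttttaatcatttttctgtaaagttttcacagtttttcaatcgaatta
cox-14: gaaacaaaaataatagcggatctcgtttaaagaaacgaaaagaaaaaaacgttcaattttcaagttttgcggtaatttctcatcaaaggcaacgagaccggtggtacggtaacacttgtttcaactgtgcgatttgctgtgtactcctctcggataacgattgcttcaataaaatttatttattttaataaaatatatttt
atp-2: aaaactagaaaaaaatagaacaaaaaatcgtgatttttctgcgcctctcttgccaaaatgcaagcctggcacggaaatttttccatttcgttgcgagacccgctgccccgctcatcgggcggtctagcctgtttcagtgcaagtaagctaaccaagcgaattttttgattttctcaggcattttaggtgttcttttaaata

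In each complex with members, some genes had an EFL-1 promoter peak and others did not. A gene was counted as having a promoter peak when a summit of the set that passed the authors' irreproducible discovery rate (IDR) threshold, 1886 peaks in all, lay between 1000 bp before and 500 bp after any transcript 5' end. By this rule 16 of the 34 genes had a peak (47.1%, 95% Clopper-Pearson interval 29.8 to 64.9%, counting error only), against 2200 of all 19973 protein-coding genes (11.0%). The count was 4 of 5 for the ATP synthase (80%), 7 of 15 for complex IV (46.7%), 2 of 5 for complex III (40%), 2 of 6 for complex I (33.3%) and 1 of 3 for the cytochromes (33.3%). Groups this small have wide intervals, from 28.4 to 99.5% for the ATP synthase and from 4.33 to 77.7% for complex I, so the order of the complexes is not resolved.

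**Figure D1:**
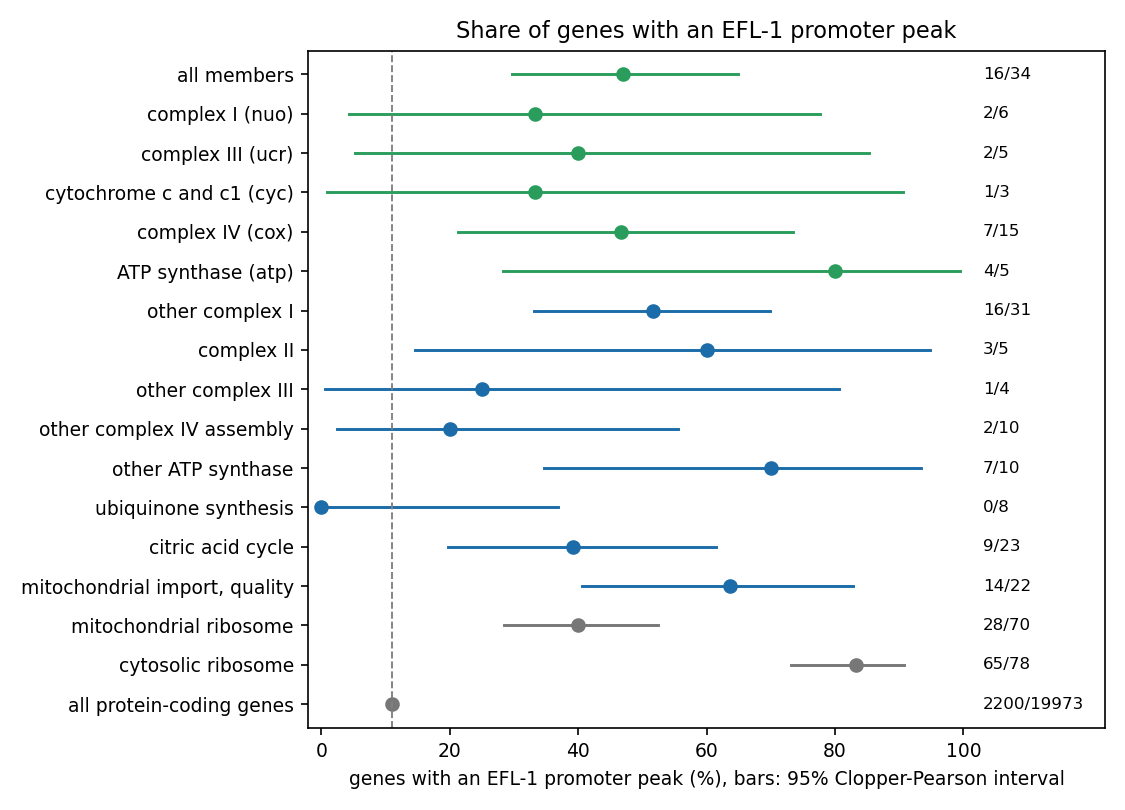
Share of genes with an EFL-1 promoter peak (x axis, percent) in the 34 genes and each complex (green), pathway genes outside them (blue), and the ribosomal protein lists and all protein-coding genes (grey). Points are shares, bars are 95% Clopper-Pearson intervals, the dashed line is the 11.0% of all protein-coding genes, and the counts stand at the right; the ATP synthase genes reach 4 of 5 and ubiquinone synthesis genes 0 of 8.

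The 16 genes were found in each replicate alone, but the IDR set was drawn from these same replicates, so this is not an independent check. Among the 1886 strongest regions of replicate 2, the same 16 genes had a summit in the window, against 10.8% of all genes. Among the 1886 strongest of replicate 3, those 16 and cox-16 had one, against 10.4% of all genes. In strength the peaks were ordinary for a promoter. Pooled signal is the value the authors' caller gave each region from both replicates. Its median was 75.1 over the 16 peaks, the strongest of each gene (36.3 to 1044). This compares with 76.8 over the 1491 strongest promoter peaks of all genes. Over all 1541 IDR peaks in any promoter window, weaker second peaks included, the median was 73.7. The 943 strongest IDR peaks held 11 of the 16 (68.75%), against 57.7% of the 1491 strongest promoter peaks of all genes.

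Replicate 2 had higher signal values than replicate 3 at all 16 peaks, by a median factor of 2.29 (1.69 to 3.95) against 2.48 over all IDR peaks found in both. Signals are therefore also given scaled, as a multiple of the replicate's own median over the IDR peaks, which was 45.8 in replicate 2 and 19.2 in replicate 3, with the mean ± SD over the 2 replicates.

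Complex I takes electrons from NADH, and its peaks stood at nuo-1 and nuo-2. The gene nuo-1 encodes the flavoprotein subunit that oxidises NADH, and its signal was 61.7 in replicate 2 and 36.5 in replicate 3 (scaled 1.62 ± 0.391), at a summit 283 bp upstream (chromosome II, 11097535 to 11097605). The same summit lay 350 bp upstream of rpl-36.A, a ribosomal protein gene that runs the other way. For nuo-2, a subunit of the arm that faces the matrix, the signal was 41.9 in replicate 2 and 20.03 in replicate 3 (scaled 0.979 ± 0.0896), 130 bp upstream (chromosome I, 6531951 to 6532234). Its peak was in no other gene's window, although nuo-2 starts 20 bp behind the end of T10E9.14 and the summit lies inside that gene. Both nuo-1 and nuo-2 thus had a scaled signal near or above 1, the typical IDR peak, and the replicate values of the 2 genes did not overlap.

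The other 4 complex I genes had no IDR peak. The strongest region of the pooled list, 30000 regions down to the background, had a signal of 16.7 at nuo-6 (rank 2703), 15.5 at nuo-4 (rank 2972) and 9.21 at nuo-3 (rank 9711), against 24.4 for the weakest IDR peak. The gene nuo-5, for a further subunit that carries iron-sulfur clusters, had no region in its window at all.

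Complex III passes electrons from ubiquinol to cytochrome c, and peaks stood at both kinds of its core subunit gene. At ucr-1 the signal was 42.8 in replicate 2 and 12.8 in replicate 3 (scaled 0.801 ± 0.189), with the summit 161 bp upstream (chromosome III, 5591832 to 5592115) and 256 bp upstream of the divergent helicase gene ddx-15. At ucr-2.2 it was 41.2 in replicate 2 and 13.8 in replicate 3 (scaled 0.808 ± 0.130), 207 bp upstream (chromosome X, 15173555 to 15173838). Both were below the typical IDR peak in both replicates. The related genes ucr-2.1 and ucr-2.3 differed from ucr-2.2: ucr-2.1 had only a region of signal 9.36 (rank 9255) and ucr-2.3, like ucr-11, none. On the X chromosome, where 2.71% of all genes had a promoter peak, ucr-2.2 had one and ucr-2.1 did not.

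Cytochrome c1, the product of cyc-1, is itself a catalytic subunit of complex III, from which cytochrome c takes its electrons. With cyc-1 counted there, complex III had a peak at 3 of 6 genes (50%, 11.8 to 88.2%), against 11.0% of all genes. The cyc-1 gene had a signal of 79.2 in replicate 2 and 37.5 in replicate 3 (scaled 1.84 ± 0.157). The summit lay 302 bp upstream, in no other gene's window (chromosome I, 8024654 to 8024778). Of the cytochrome c genes, cyc-2.1 had a region of signal 10.1 (rank 7405) and cyc-2.2 none.

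Complex IV, cytochrome c oxidase, held the strongest peak of all 34 genes, at cox-5A. Its signal was 723 in replicate 2 (rank 38) and 318 in replicate 3 (rank 16), and its pooled signal of 1044 ranked 35 of 1886 (scaled 16.2 ± 0.554). The summit lay 290 bp upstream in no other gene's window (chromosome III, 12905044 to 12905342), and the replicate summits were 11 bp apart. No other member came near it, and it was high in both replicates.

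The other structural subunits of complex IV with a peak were nearer the typical level. For cox-6B the signal was 70.2 in replicate 2 and 36.0 in replicate 3 (scaled 1.70 ± 0.242), 174 bp upstream (chromosome III, 2785985 to 2786071). For cox-5B it was 58.7 in replicate 2 and 22.5 in replicate 3 (scaled 1.23 ± 0.0797), only 5 bp upstream (chromosome I, 9788578 to 9788861). The cox-6B summit was nearer to the divergent gene Y71H2AM.20 (80 bp), and it also counted for nduc-2, a complex I subunit gene 824 bp away on the same strand. A second, weak IDR peak of cox-6B lay 712 bp upstream of another of its 5' ends, with a pooled signal of 26.6. That summit, at position 2698951, lay far from the first, at 2786028, and also in the window of slc-30A9.

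The cox-4 signal was 54.1 in replicate 2 and 13.7 in replicate 3 (scaled 0.947 ± 0.331), 432 bp upstream (chromosome I, 13659418 to 13659701). The cox-6A signal was 43.4 in replicate 2 and 14.7 in replicate 3 (scaled 0.858 ± 0.128), 787 bp upstream (chromosome III, 5080795 to 5081078), the farthest of the 16. At cox-4 the replicates disagreed most in proportion, with replicate 2 above and replicate 3 below the typical IDR peak. The cox-6A peak covers an annotated small nuclear RNA gene, F54D8.7, whose nearer end is 39 bp from the summit, so the list does not tell which gene the peak belongs to. Of the structural subunits, cox-6C had a region of signal 17.1 (rank 2638) and cox-7C none. This makes 5 of 7 with a peak (71.4%, 29.0 to 96.3%), against 11.0% of all genes.

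Of the 8 assembly factors of complex IV, 2 had a peak (25%, 3.19 to 65.1%), against 11.0% of all genes. Both peaks were strong. The gene cox-10 encodes the farnesyltransferase that makes haem O, and its signal was 375 in replicate 2 and 133 in replicate 3 (scaled 7.55 ± 0.919). Its summit lay 120 bp upstream (chromosome II, 12679704 to 12679962), inside the non-coding RNA gene Y38E10A.30 and 188 bp upstream of Y38E10A.33. The gene cox-14, named for a factor that in yeast acts on the synthesis of a core subunit, had a signal of 112 in replicate 2 and 48.3 in replicate 3 (scaled 2.48 ± 0.0475), 179 bp upstream (chromosome III, 10218692 to 10218834). The divergent gene rde-4, for an RNA-binding protein of RNA interference, was nearer to that summit, at 117 bp.

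For the other 6 assembly factors no IDR peak lay in the window. The strongest region was at cox-16, with a signal of 8.35 in replicate 2 and 12.3 in replicate 3; the raw value was the higher one in replicate 3, in contrast to the 16 peaks above. For cox-11, a copper chaperone, the pooled signal was 9.92 (rank 7816), and cox-15, cox-17, cox-18 and cox-19 had no region. The split into subunits and assembly factors was made after the values were seen and is a description. The intervals of their shares overlap, so a difference between them is not resolved.

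In the ATP synthase, the peaks stood at 2 genes of the catalytic head and 2 of the stalk. Each of these peaks also lay in the window of a gene on the other strand. The alpha subunit gene atp-1 had a signal of 128 in replicate 2 and 54.5 in replicate 3 (scaled 2.82 ± 0.0253), 13 bp upstream (chromosome I, 12652196 to 12652339). That summit also lay 177 bp upstream of mcrs-1. The beta subunit gene atp-2 had a signal of 46.3 in replicate 2 and 23.2 in replicate 3 (scaled 1.11 ± 0.139), 237 bp upstream (chromosome III, 5228038 to 5228321). The atp-2 summit also lay 296 bp upstream of C34E10.10 and 299 bp upstream of C34E10.12. The head's alpha and beta subunits assemble in equal number, and the scaled signal at the alpha gene was above that at the beta gene in both replicates.

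For the stalk gene atp-3 the signal was 48.0 in replicate 2 and 22.9 in replicate 3 (scaled 1.12 ± 0.102), 12 bp upstream (chromosome I, 5429778 to 5430061). Its summit also lay 237 bp upstream of F27C1.2. For atp-5 the signal was 23.4 in replicate 2 and 12.3 in replicate 3 (scaled 0.576 ± 0.0931), 258 bp upstream (chromosome V, 11123983 to 11124266). The atp-5 peak was the weakest of the 16 in replicate 2 and in replicate 3, and its summit was nearer to lmtr-3, at 61 bp. The remaining gene, atp-4, had a region of signal 16.6 (rank 2737), 13.3 in replicate 2 and 2.81 in replicate 3.

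**Figure D2:**
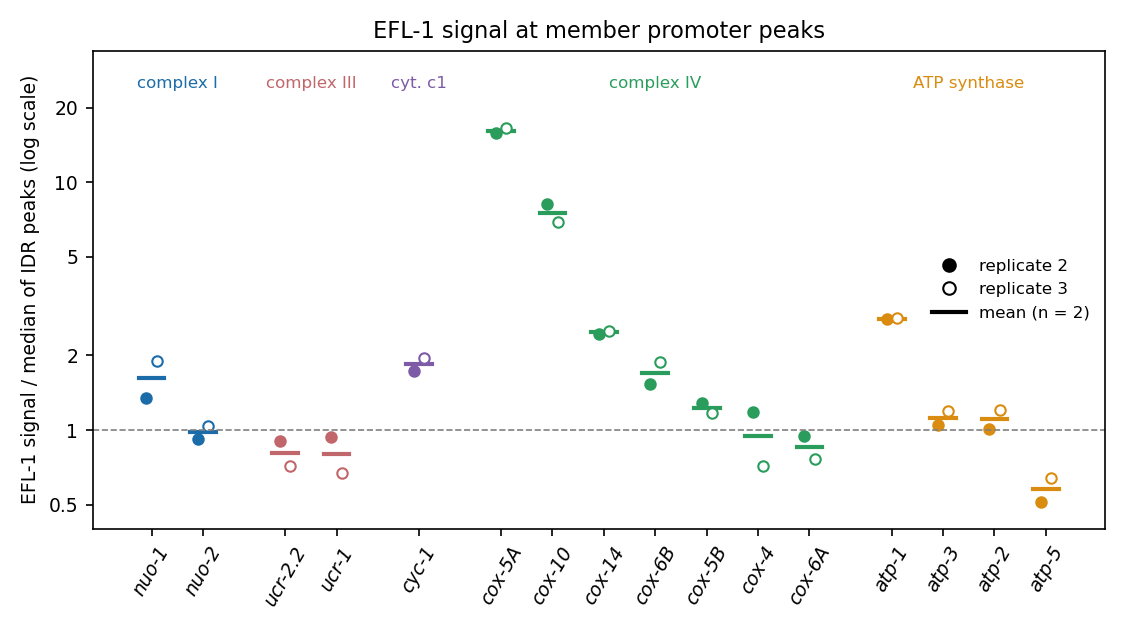
Scaled EFL-1 signal (y axis, log scale, multiples of the replicate's median over the IDR peaks) at the strongest promoter peak of the 16 genes with one, ordered by complex. Filled points are replicate 2, open points replicate 3 and bars their mean; cox-5A at 16.2 and cox-10 at 7.55 stand above the rest, and atp-5 at 0.576 is lowest.

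Ordered by scaled signal, cox-5A, cox-10, atp-1, cox-14 and cyc-1 came in that order with no overlap between the replicate values of neighbours. The values of cyc-1, cox-6B and nuo-1 overlapped. From cox-5B down through atp-3, atp-2, nuo-2, cox-4, cox-6A, ucr-2.2 and ucr-1, each overlapped its neighbour, so their order is not resolved. The values of cox-5B lay below those of nuo-1, and those of atp-5 below those of all others. With 2 replicates this order has no test.

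**Figure D3:**
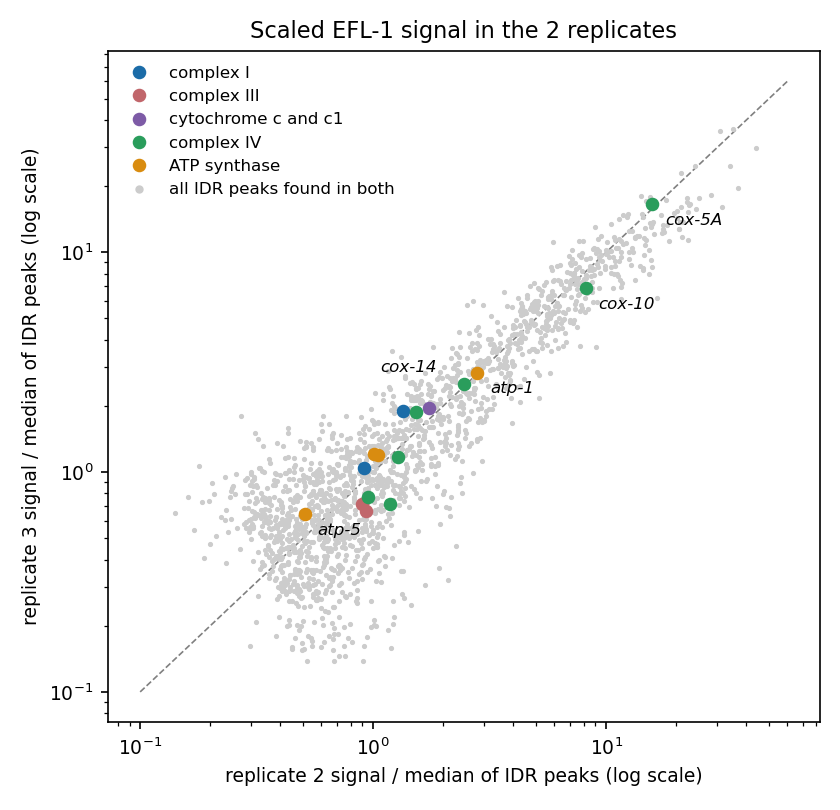
Scaled signal in replicate 2 (x axis) against replicate 3 (y axis), both on log scales, for all IDR peaks found in both replicates (grey) and the 16 member peaks, coloured by complex. The dashed line marks equal values; the strong peaks of cox-5A, cox-10, atp-1 and cox-14 lie close to it, and atp-5 is at the low end with 0.511 in replicate 2 and 0.642 in replicate 3.

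The 16 summits lay where promoter peaks lie at other genes. All 16 were upstream of the 5' end, against 94.3% of all 2200 genes with a peak. Their distances ran from 5 to 787 bp with a median of 193 bp, against a median of 222 bp for all genes with a peak. When the window was narrowed to 300 bp before and 100 bp after the 5' end, 13 of the 34 genes kept their peak, against 7.17% of all genes, and cyc-1, cox-4 and cox-6A lost theirs. Replicate summits lay a median of 10.5 bp apart (0 to 44), against 17 bp over all IDR peaks. The bases around the summits were 40.5% G or C (median), against 39.8% over all IDR peaks.

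Peaks were often shared with a neighbour, as at other genes. Of the 16 genes, 9 had a peak that also lay in another gene's window (56.25%), against 62.8% of all genes with a promoter peak. In 3 cases, cox-6B, cox-14 and atp-5, the neighbour's 5' end was nearer. The 7 genes whose peak lay in no other protein-coding gene's window were nuo-2, ucr-2.2, cyc-1, cox-4, cox-5A, cox-5B and cox-6A. Annotated non-coding genes lay under 4 of the 16 peaks (25%), those of nuo-1, cox-10, cox-6A and atp-3, against 13.1% of all IDR peaks. This count was added after the peaks were seen.

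**Figure D4:**
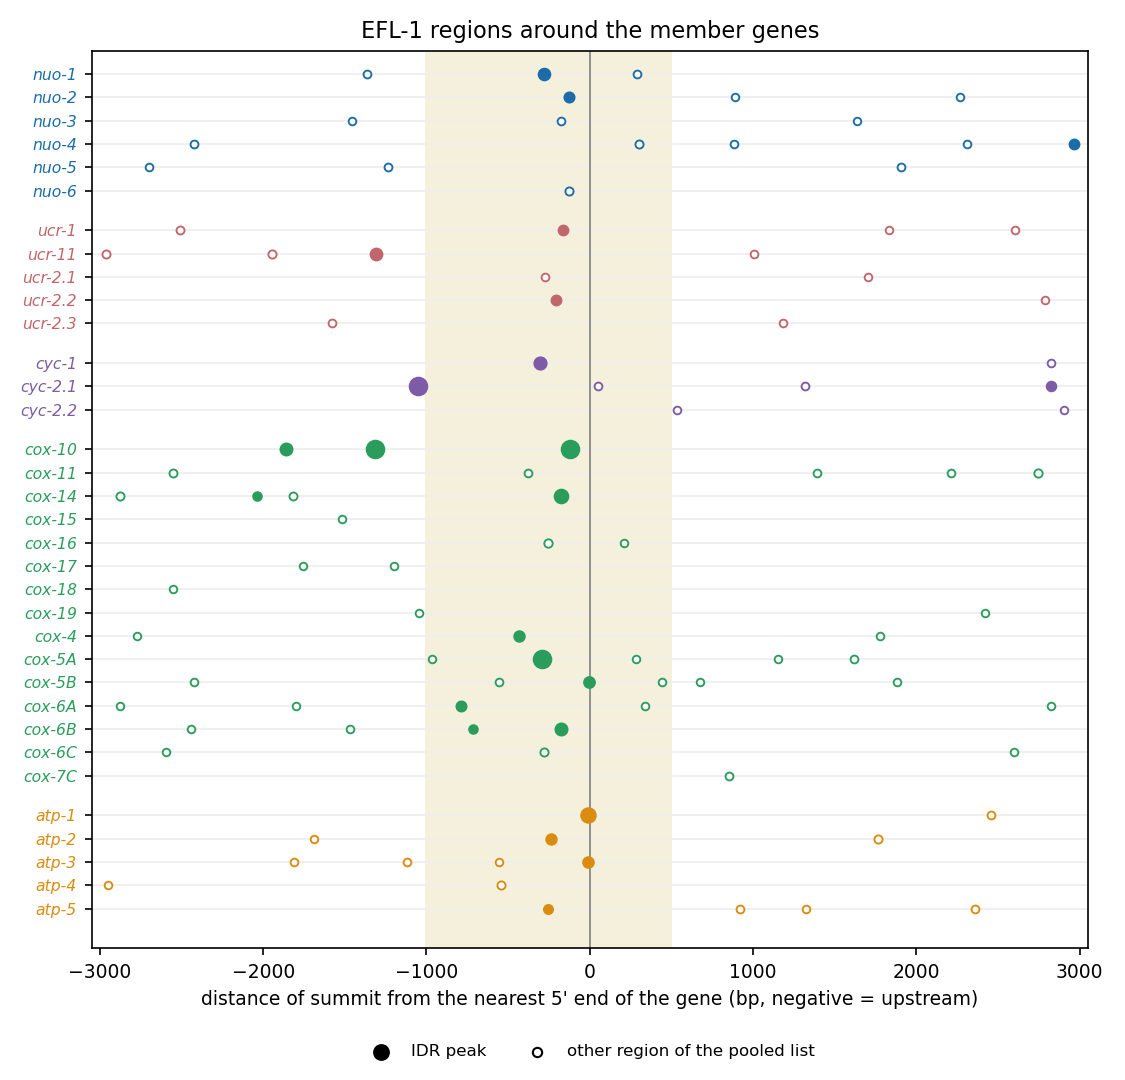
Summits within 3000 bp of the 5' ends of the 34 genes (x axis, distance in bp, negative is upstream), 1 line per gene, coloured by complex. Filled points are IDR peaks, larger for stronger signal, open points are other regions of the pooled list, and the shaded band is the promoter window; all 16 strongest member peaks lie left of 0.

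Of the 18 genes without a peak, 10 stood close behind another gene, against 3382 of all 17773 genes without a peak. Of the 34 genes, 13 have a protein-coding gene on the same strand that ends within 500 bp upstream, as do 3709 of all 19973. Of these 13, 3 had a peak (23.1%), against 8.82% of all genes in that position. Of the other 21 genes 13 had a peak (61.9%), against 11.5% of all genes in theirs. The 10 genes behind a neighbour and without a peak, namely nuo-4, nuo-5, ucr-11, cyc-2.1, cox-11, cox-15, cox-17, cox-18, cox-19 and atp-4, all start within 120 bp of the end of the gene before them. How many of all genes start this close was not counted. Operon annotation was not used here, so these are runs of neighbours and not known operons.

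Following these runs to their first gene placed a peak before 7 of the 10, against 24.4% of all genes behind a neighbour and without a peak of their own. That share takes in gaps of up to 500 bp, whereas these 10 all had gaps within 120 bp. Before cox-11 the first gene was lin-54, which encodes a DNA-binding subunit of the DREAM complex, with a signal of 383 in replicate 2 and 106 in replicate 3. Before cyc-2.1 it was the ribosomal protein gene rpl-20, with 279 in replicate 2 and 92.8 in replicate 3. These were strong peaks, at ranks 167 and 242 of the IDR set.

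Before cox-18 the first gene was Y55F3AR.2 (pooled signal 283), before nuo-4 syf-2 (232), before ucr-11 dad-1 (104), before cox-15 rpn-9 (49.0) and before nuo-5 Y45G12B.2 (46.7). No promoter peak lay at the first gene for atp-4 (alh-4), cox-17 (ubc-20) and cox-19 (hpo-35). Whether these peaks act on the members was not tested.

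Of the 18 genes without an IDR peak, 9 had some region of the pooled list in the window, against 44.9% of all genes without an IDR peak. This share was near that of all genes. The regions had a median signal of 15.5 (9.21 to 20.1).

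By chromosome, peaks stood at 6 of 10 genes on I, 2 of 3 on II, 6 of 9 on III, 0 of 5 on IV, 1 of 5 on V and 1 of 2 on X. Over all genes the shares were 17.5% on I, 11.8% on II, 19.5% on III, 10.3% on IV, 7.23% on V and 2.71% on X. The 5 genes on IV were nuo-3, cyc-2.1, cox-6C, cox-11 and cox-18, and 0 of 5 allows a share of up to 52.2% (Clopper-Pearson).

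The letters of the full E2F consensus were found at none of the 16 peaks. TTTCCCGC, TTTCGCGC, TTTGCCGC and TTTGGCGC, sought on both strands within 100 bp of the summit, lay at 0 of 16 member peaks (up to 20.6%), against 12.5% of the 1491 strongest promoter peaks of all genes and 3.33% of all 201-bp stretches before a 5' end. Without the first T, a form that holds every match of the longer one, the letters lay at 1 of 16, the peak of nuo-2, against 27.0% of promoter peaks and 6.31% of promoters. TTTGAA lay at 4 of 16 (25%), those of cox-4, cox-5A, cox-5B and atp-5, against 52.6% of promoter peaks and 50.1% of promoters. At cox-5A it starts 77 bp from the summit, as the capitals above show. The GATA consensus TGATAA, bound by factors of the intestine, lay at 1 of 16, that of atp-5, against 10.4% of promoter peaks and 22.8% of promoters. These gaps depend on the stretch searched. Within 250 bp of the summit TTTGAA lay at 12 of 16 member peaks (75%), against 82.5% of promoter peaks, and TGATAA at 5 of 16 (31.25%), against 36.3%. An absent match says only that these letters are not in this window.

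Genes of the same pathways outside the name rule had peaks too. Among other subunits and assembly genes of the chain and the ATP synthase, 29 of 60 had one (48.3%, 35.2 to 61.6%), against 11.0% of all genes, with a median signal of 92.2. In the narrowed window the count was 18 of 60 (30%), against 7.17% of all genes. Most of the 29 peaks also lay in another gene's window, as did those of 62.8% of all genes with a promoter peak. Complex I added 16 of 31, led by nduf-11 (scaled 12.8 ± 2.74), nduv-3 (5.19 ± 0.479) and ndua-5 (3.44 ± 1.22). The nduv-3 peak was shared with mdf-2, and nduc-2 entered this count through the cox-6B peak. Complex II, succinate dehydrogenase, had 3 of 5, with mev-1 (2.43 ± 0.885) and sdhd-1 (1.36 ± 0.526) for its membrane anchors and sdha-1 (0.567 ± 0.165) for its flavoprotein. The mev-1 peak was shared with jmjd-4 and the sdhd-1 peak with ilkp-1. Complex III had 1 of 4, T27E9.2 (11.4 ± 7.29), whose peak also lay in the windows of the adenine nucleotide carrier gene ant-1.1 and of abcf-2.

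Assembly genes of complex IV outside the cox names had 2 of 10 (20%, 2.52 to 55.6%), against 11.0% of all genes. These were coa-3 (4.46 ± 0.243) and the copper chaperone gene sco-1 (2.47 ± 0.591). The coa-3 summit lay 600 bp upstream and also in the window of F35D11.4. The ATP synthase added 7 of 10 (70%), against the same 11.0%, led by hpo-18 (6.72 ± 1.64), the inhibitor gene mai-2 (4.12 ± 0.178) and R53.4 (1.69 ± 0.825). The hpo-18 peak was shared with the replication gene mcm-7 and the R53.4 peak with psf-1. Both complex IV assembly genes with a peak here, like cox-10 and cox-14, had a scaled signal above the typical IDR peak. By pooled signal, 57.7% of the strongest promoter peaks of all genes were among the 943 strongest IDR peaks.

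Of the pathways beside the chain, mitochondrial import and protein quality had 14 of 22 (63.6%), against 11.0% of all genes. The strongest were tomm-20 (12.5 ± 0.105), phb-2 (11.6 ± 1.73) and spg-7 (7.80 ± 1.25). The citric acid cycle had 9 of 23 (39.1%), against the same 11.0%, led by dld-1 (24.5 ± 0.480), mdh-2 (7.68 ± 0.559) and aco-2 (1.76 ± 0.898). The spg-7 peak was shared with Y47G6A.14, that of dld-1 with nspg-9, that of mdh-2 with F20H11.4 and that of aco-2 with eef-1B.1. Ubiquinone synthesis, which makes the carrier between complexes I, II and III, had 0 of 8. This allows up to 36.9% and so includes the 11.0% of all genes. Of the 140 names on these lists, 27 matched no annotated symbol and do not enter the counts.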

How the data were processed

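ChIP-seq peak lists of 2 biological replicates of whole L1 larvae were analysed. Per the file headers and the submitters' notes, these are narrowPeak lists on ce11: 30000 regions per replicate, 30000 from both pooled, and an IDR set of 1886. The signal value of each region and the summit are the authors' deposited values; no source used here names the caller or aligner. Depth is unknown, so intervals cover counting of genes or peaks only. Per the notes, each list was derived from replicate alignments and 1 further file, whose nature they leave unstated.

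Summits were placed in promoter windows (1000 bp upstream to 500 bp downstream of any 5' end) of Ensembl release 115 genes on WBcel235, with Python 3.11.15, pandas 2.3.3, numpy 2.4.6 and scipy 1.17.1. A gene's strongest summit was used, and replicate regions were matched to it by at least 1 bp. Scaled signal is the signal over the median that the same replicate had at the IDR peaks. The 2 replicates are separate by label, and no test was made, with 1 group and no second condition. The genes named are all 34 members and the up to 3 strongest of each pathway list. Protein-coding genes sharing the peak of one of these, or leading the run of a member without a peak, are also named. The members and lists were chosen with earlier results of these data known. On simulated summits, the genes found among 19973 were identical to a direct search in 3 of 3 trials. The ce10 lists were not used.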

Additional observations from a re-analysis of the deposited data

How the results depend on the processing

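Of 37 recomputed counts and shares, 29 stayed within 1.5 times the value reported and 8 moved. The scaled signals of the 16 single peaks give no such check: with 2 replicates, leaving out 1 always stays within the SD, and scaling to the median of all regions enlarges every value. Leaving out 1 replicate at a time, the member share was 47.1 to 50%, complex IV had 7 to 8 genes with a peak, and the pathway genes outside the members ranged from 38.3 to 50%. The member share was 32.4% with the 943 strongest IDR peaks (all genes 6.48%), 50% when a peak needed only to reach into the window, which adds cyc-2.1 (all genes 11.4%), and 38.2% with each summit given to the nearest 5' end, which removes cox-6B, cox-14 and atp-5 (all genes 7.54%). In the narrow window (300 bp before to 100 bp after the 5' end), the cytochrome count was 0 of 3 and the share of pathway genes outside the members 30%. Motif counts moved with the stretch searched: TTTGAA lay at 1 of 16 peaks within 50 bp (all promoter peaks 35.6%) and at 12 within 250 bp (82.5%), TGATAA at 0 (3.69%) and at 5 (36.3%). The E2F consensus lay at 1 within 250 bp (17.2%) and at 1 without its first base (27.0%). Alternatives for the pathway genes and the shorter consensus were chosen after seeing the data. No paired analysis was possible because there was 1 group. With 2 replicates and no read counts, neither spread nor depth sets a firm limit on single peaks.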

Other observations

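Ribosomal protein genes, another group of nuclear genes active in most cells, give a scale for these shares. The 34 respiratory genes had a promoter peak at 47.1% and a median pooled signal of 75.1. Of 78 cytosolic ribosomal protein genes 65 had an EFL-1 promoter peak (83.3%, 73.2 to 90.8%), with a median pooled signal of 98.6. Of 70 mitochondrial ribosomal protein genes 28 had one (40%, 28.5 to 52.4%), with a median of 58.8. Of all 19973 protein-coding genes 11.0% had one, with a median of 76.8 over their strongest promoter peaks. No test was run between these lists.

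Other IDR peaks lay near these genes but outside their promoter windows. Besides its promoter peak, cox-10 had IDR peaks 1313 bp upstream (pooled signal 303) and 1859 bp upstream (108). An IDR peak with a signal of 53.9 lay 2966 bp downstream of the 5' end of nuo-4. The rpl-20 peak ahead of cyc-2.1 lay 1053 bp upstream of the cyc-2.1 5' end, just past the window's edge, and part of it reached into the window.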
